A study of Arabidopsis thaliana with 24 samples.

Results

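WUSCHEL (WUS) and 9 related genes of the WUSCHEL-RELATED HOMEOBOX (WOX) family were followed through shoot regeneration in Arabidopsis hypocotyl explants. The members were taken by gene identifier, namely WUS (AT2G17950), WOX1 (AT3G18010), PRS, also called WOX3 (AT2G28610), WOX4 (AT1G46480), WOX5 (AT3G11260), WOX7 (AT5G05770), WOX11 (AT3G03660), WOX12 (AT5G17810), WOX13 (AT4G35550) and WOX14 (AT1G20700), and all 10 were found among the 25960 genes of the deposited files. RNA was sequenced from explants of siz1-2, a mutant of the SUMO E3 ligase gene SIZ1, and of wild type (WT), both in the Columbia (Col-0) accession. Seedlings were 7 days old and dark-grown. One set of explants was collected straight after excision (0 d) and another at the end of 4 days on callus-inducing medium (CIM 4 d). The remaining sets were moved from there to shoot-inducing medium and kept on it for 4 days (SIM 4 d) or 6 days (SIM 6 d). The CIM held the auxin 2,4-D with the cytokinin kinetin, and the SIM held the auxin IAA with the cytokinin 2-IPA, for both genotypes alike. Each of the 8 groups had 3 libraries, 24 in all, each made from whole explants, so that a lower value from fewer cells of a type and from less RNA per cell cannot be told apart.

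WOX proteins are plant transcription factors with a homeodomain, a fold whose recognition helix lies in the DNA groove. WUS keeps the stem cells of the shoot meristem, in a loop in which it switches on the peptide gene CLV3 and the CLAVATA receptors in turn restrain WUS. WOX5 holds the stem cells of the root tip, and callus formed on auxin-rich medium is known to resemble root tissue. WOX11 and WOX12 act when founder cells of new roots are set aside, WOX4 and WOX14 in the vascular cambium, and WOX1 and PRS at the leaf margin.

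The coding stretch around the codons for tryptophan, phenylalanine, glutamine and asparagine in the recognition helix is shown for 9 of the members because it is what they share. It was read in frame from the RefSeq TAIR10.1 genome, 30 bases per gene, each within 1 exon, and capitals mark the 15 bases that are identical in these 9.
WUS: GTcTtttAcTGGTTcCAgAAcCataaggCt
WOX1: GTtTtctAtTGGTTcCAaAAcCacaaagCc
PRS: GTcTtttAcTGGTTcCAgAAcCataaggCt
WOX4: GTgTtctAtTGGTTcCAgAAcCacaaagCc
WOX5: GTtTtctAtTGGTTtCAgAAtCataaggCt
WOX7: GTgTtctAtTGGTTcCAaAAcCataaagCt
WOX11: GTcTtctAtTGGTTtCAaAAcCggcggtCa
WOX12: GTcTtctAcTGGTTtCAaAAcCgacggtCa
WOX14: GTcTacaAtTGGTTtCAaAAcCggcgagCt
WUS and PRS were identical over all 30 bases, WOX11 and WOX12 over 28, and WOX5 and WOX7 over 25. Over whole transcripts the longest exact stretch shared by WOX5 and WOX7 was 20 bases, by WOX11 and WOX12 23 bases and by WUS and PRS 33 bases. No word of 25 bases of WOX7 occurred in any other annotated gene, and 0.82% of those of WUS did. The sources used here do not say how reads that match several genes were counted. Gene rows added up to 102.5 to 103.6% of the library reads, so some reads were counted in more than 1 row.

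Libraries held 7979350 to 15591781 reads, and values are reads per 1000000 library reads (rpm), 3 libraries per group. Of the 10 members, 8 passed the filter of at least 1 rpm in at least 3 libraries and were tested. The 2 that did not were WOX1, with 64 reads over all libraries, and PRS, with 7. SIZ1 reads specific to the 3′ end of its full-length isoform, taken as isoform 1 beyond isoform 3, numbered −1 to 0 in the siz1-2 libraries and 216 to 493 in the WT libraries. Markers of phloem, xylem and endodermis were present at 0 d, and those of root hairs summed to at most 0.8 rpm. 4 of the libraries stood apart by other genes. siz1-2 replicate 3 and WT replicate 2 at CIM 4 d had ICS1, a salicylic acid synthesis gene, at 174 and 182 rpm against 6.2 to 9.3 rpm in the other CIM libraries. WT replicate 1 at 0 d had 2 greening markers at a sum of 676 rpm against 1.9 and 2.8 rpm in the other WT libraries of 0 d. WT replicate 2 at SIM 6 d had the heat-shock gene HSP101 at 283 rpm against 30.2 and 32.3 rpm in the others of its group.

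**Figure D1:**
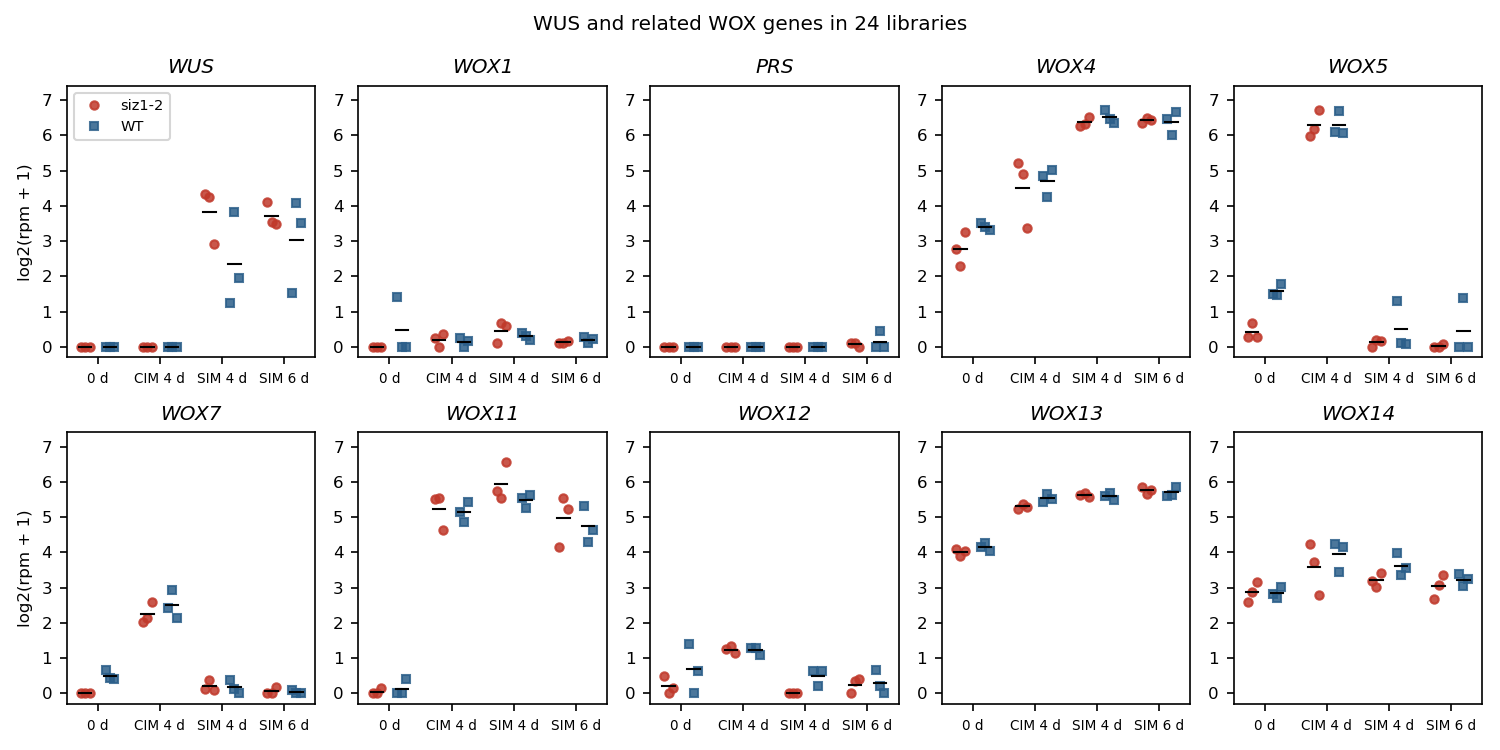
Levels of the 10 members as log2(rpm + 1), vertical axis, by stage, horizontal axis, with siz1-2 as circles left of WT as squares, 1 point per library and a bar at the mean of 3 libraries. WUS appears in the SIM libraries, WOX5 and WOX7 peak at CIM 4 d, WOX4 is highest on SIM, and PRS stays at or near 0.

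WUS had no read in any 0 d or CIM 4 d library of either genotype and was read in all 12 SIM libraries. The gene lies on chromosome 2 at 7808871 to 7810811 on the minus strand (TAIR10.1) and has 3 exons. At SIM 4 d it stood at 19.2, 17.9 and 6.54 rpm in siz1-2 (227, 239 and 102 reads) and at 1.39, 13.2 and 2.88 rpm in WT (18, 164 and 43 reads). One WT library, replicate 2, lay within the siz1-2 range and the other 2 lay below it, so the groups overlapped. Against CIM 4 d, WUS rose in siz1-2 by 3.83 ± 0.56 on the log2(rpm + 1) scale (limma adjusted p = 1.47e-05), at least 152-fold by pooled reads when the CIM group is set at 3 reads. In WT it rose by 2.35 ± 0.56 (limma adjusted p = 0.0021), at least 56.6-fold on the same footing. That WT bound is for the pooled group, in which replicate 2 held 164 of 225 reads. It is not a bound for each library.

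The level of WUS at SIM 4 d averaged 14.5 ± 6.94 rpm in siz1-2 and 5.84 ± 6.46 rpm in WT (SD, n = 3 each). That difference, 1.48 ± 0.56 on the log2(rpm + 1) scale, did not pass the threshold (limma adjusted p = 0.213). It passed once WT replicate 2 was left out (2.22, limma adjusted p = 0.0342) and was 0.93 without WT replicate 1 (limma adjusted p = 0.769). At the later SIM stage WUS stood at 16.3, 10.6 and 10.2 rpm in siz1-2 and at 1.87, 15.8 and 10.4 rpm in WT. WT replicate 1 lay far below the 5 other libraries of that stage, which covered one range. The genotype difference was 0.67 ± 0.56 (limma adjusted p = 0.694), and −0.08 without WT replicate 1. From SIM 4 d to SIM 6 d WUS differed by −0.12 ± 0.56 in siz1-2 (limma adjusted p = 0.999) and by 0.69 ± 0.56 in WT (limma adjusted p = 0.64).

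CUC1, a NAC gene of organ boundaries, and CLV3, the stem cell peptide that WUS activates, were read beside WUS, CUC1 chosen after its values were seen as the gene closest to WUS in pattern. In the SIM 4 d libraries CUC1 stood at 8.70, 17.6 and 5.45 rpm in siz1-2 and at 2.00, 15.3 and 3.42 rpm in WT. CLV3 stood at 2.62, 4.71 and 1.67 rpm in siz1-2 and at 0.15, 5.90 and 0.40 rpm in WT. By SIM 6 d CUC1 stood at 17.7, 8.20 and 10.6 rpm in siz1-2 and at 1.94, 17.9 and 13.7 rpm in WT. CLV3 stood at 3.74, 1.76 and 2.26 rpm in siz1-2 and at 0.72, 3.95 and 3.57 rpm in WT. WT replicates 1 and 3 at SIM 4 d and WT replicate 1 at SIM 6 d were the 3 lowest of the 12 SIM libraries for all 3 genes. The 7 shoot genes summed as a list, CUC1 among them, did not order the libraries so. They summed to 45.3, 61.6 and 34.2 rpm in siz1-2 and to 35.3, 74.2 and 53.9 rpm in WT at SIM 4 d, with the lowest sum in siz1-2 replicate 3. CUC2, a relative of CUC1, was the largest part of each of these sums. It stood at 12.6 to 19.5 rpm in siz1-2 and at 17.2 to 32.5 rpm in WT at SIM 4 d, and the genotypes overlapped. For STM, also of the list, WT replicates 1 and 3 at SIM 4 d (0 and 0.20 rpm) and WT replicate 1 at SIM 6 d (0.14 rpm) were again lowest. Its next lowest SIM library was siz1-2 replicate 3 at SIM 4 d (0.77 rpm). CUC2, ESR1 and HEC1 of the list did not have these 3 libraries as their lowest. For HEC1 this rested on few reads. It was lowest in WT replicates 1 and 3 at SIM 4 d (0 and 2 reads). At SIM 6 d it had 3 reads in WT replicate 1 and 2 in WT replicate 3. Greening markers, a CAB and a Rubisco gene, summed to 671 to 765 rpm in siz1-2 and to 320 to 771 rpm in WT at SIM 4 d. WT replicate 1 had the highest of these sums and WT replicate 3 the lowest. At SIM 6 d WT replicate 1 had the lowest greening sum, 647 rpm, against 1133 to 1546 rpm in the 5 others. The part of differing shoot progress among explants in the WUS values was not tested.

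**Figure D2:**
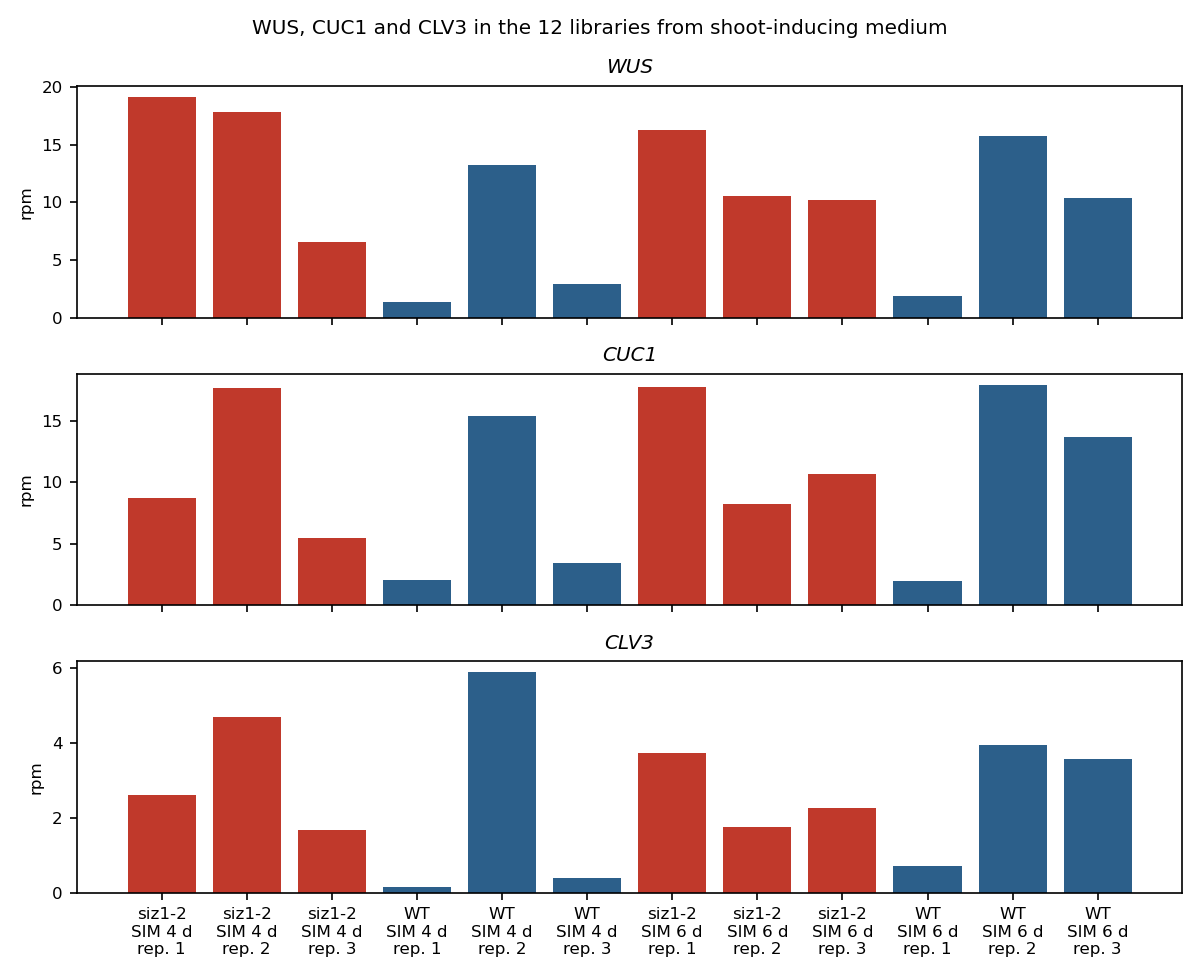
WUS, CUC1 and CLV3 levels in rpm, vertical axis, in each of the 12 SIM libraries, horizontal axis, with siz1-2 in red left of WT in blue at each stage and 1 bar per library. The 3 shortest bars of every panel belong to WT replicates 1 and 3 at SIM 4 d and WT replicate 1 at SIM 6 d.

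Over the 24 libraries CUC1 was also the gene closest to WUS in pattern (Pearson r = 0.983 of log2(rpm + 1), 19250 genes searched). Then came AT1G73602 (0.980) and AT1G73600 (0.979), GH3.9, which encodes an enzyme of the family that conjugates auxin to amino acids (0.979), and LOB, another organ boundary gene (0.975). AT1G73602 and AT1G73600 had near equal reads in every library, for instance 1444 and 1469 in WT replicate 2 at SIM 4 d. Whether they count the same reads was not tested. Such correlations describe these libraries only, and they share the stages at which the genes are low.

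The 300 bases before the annotated start of WUS are shown because cytokinin response regulators of type B are known to bind the WUS promoter. Capitals mark matches, on either strand, to AGATT or AGATC, the core letters of their binding motif, to the auxin response motif TGTCTC or TGTCGG, or to TTAATGG, a motif described for WUS itself. The stretch is chr2:7810812-7811111, minus strand, RefSeq TAIR10.1.
WUS: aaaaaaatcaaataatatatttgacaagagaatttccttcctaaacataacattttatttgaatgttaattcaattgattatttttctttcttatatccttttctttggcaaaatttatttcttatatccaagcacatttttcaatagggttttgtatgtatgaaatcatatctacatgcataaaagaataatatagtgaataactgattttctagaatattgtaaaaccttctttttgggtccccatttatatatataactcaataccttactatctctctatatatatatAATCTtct
It held 1 match, to AGATT, which reads AATCT on the strand shown and lies just before the annotated start. AGATT occurred in 70.4% of 25011 such windows of annotated genes, AGATC in 31.3%, TGTCTC in 13%, TGTCGG in 5.0% and TTAATGG in 8.2%. A match to so common a motif describes the letters and not a bound site.

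On SIM 4 d, the genes that act around WUS were compared with CIM 4 d by list. Over all genes tested, 53.9% were called in siz1-2 (28.8% higher and 25.1% lower) and 45.7% in WT (21.2% higher and 24.5% lower). Of 9 tested CLAVATA genes, 6 rose and 2 fell in siz1-2 (median 0.79) and 3 rose and 2 fell in WT (median 0.48), with all genes tested at a median of 0.03 and −0.03. The genotype difference in this step was called for 0 of the 9, against 0.211% of all genes tested. In siz1-2, CLV3 rose by 1.89 and CLV1, its receptor, by 0.82. Mean CLV3 went from 0.03 to 3.00 rpm in siz1-2 and from 0 to 2.15 rpm in WT. Mean CLV1 went from 5.4 to 10.2 rpm in siz1-2 and from 5.87 to 8.65 rpm in WT. The related receptor BAM2 rose by 1.42 in siz1-2 and 0.84 in WT, and ACR4, a receptor kinase of root stem cells, fell by 0.96 in siz1-2 and by 1.42 in WT. Among 9 cytokinin genes, 6 rose and 1 fell in siz1-2 and 6 rose and none fell in WT, with medians of 1.21 and 1.28. AHK4, a cytokinin receptor, rose by 1.65 in siz1-2 and 1.60 in WT, and ARR15, a response regulator of type A, by 3.78 and 3.27. Of 5 HD-ZIP III genes, which specify the upper side of organs and pattern vessels, 4 rose in each genotype, REV by 1.23 in siz1-2 and 0.68 in WT. Of 4 HAM genes, whose products pair with WUS, HAM2 alone rose in each genotype, by 0.67 in siz1-2 and 0.71 in WT. Of 7 shoot boundary and shoot identity genes, 5 rose in siz1-2 (median 1.31) and 3 in WT (median 0.86), and ESR1, a gene of shoot regeneration, rose by 2.13 in siz1-2 and 1.36 in WT. Of 5 genes for TOPLESS corepressors, which WOX proteins recruit, 2 rose in siz1-2 and 1 in WT. Between the genotypes at SIM 4 d, 2 genes of these 6 lists were called, where 2.20% of all genes tested were, CNA of the HD-ZIP III genes (0.72 ± 0.15, limma adjusted p = 0.0107) and RAX1 of the shoot genes (−0.71 ± 0.18, limma adjusted p = 0.0474).

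WOX5 and its near relative WOX7 were genes of the callus stage. WOX5 lies on chromosome 3 at 3527280 to 3528440 on the plus strand, and WOX7, a gene of 1 exon, on chromosome 5 at 1734427 to 1734855 on the plus strand (TAIR10.1). At CIM 4 d WOX5 stood at 61.8, 71.5 and 105 rpm in siz1-2 and at 67.3, 102 and 66.7 rpm in WT. At 0 d it had been at 0.20, 0.60 and 0.22 rpm in siz1-2 and at 1.82, 1.74 and 2.41 rpm in WT. The CIM libraries of both genotypes covered one range, while at 0 d every siz1-2 library lay below every WT library. Genotypes did not overlap at 0 d for 30.7% of all genes tested. The rise from 0 d to CIM 4 d was 5.88 ± 0.33 in siz1-2 (limma adjusted p = 1.92e-12) and 4.71 ± 0.33 in WT (limma adjusted p = 7.24e-11). The difference between these rises, 1.17 ± 0.47, did not pass (limma adjusted p = 0.204).

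WOX7 stood at 3.06, 3.41 and 5.05 rpm in siz1-2 and at 4.35, 6.67 and 3.38 rpm in WT at CIM 4 d. At 0 d it had no read in siz1-2 and 7, 4 and 3 reads in WT. It rose at CIM 4 d by 2.25 ± 0.18 in siz1-2 and by 2.00 ± 0.18 in WT, at limma adjusted p = 5.3e-10 and 3.94e-09. WOX7 reads came to 4.77 to 4.95% of the WOX5 reads in the siz1-2 libraries and to 5.08 to 6.56% in the WT libraries of that stage. These shares were not tested between the genotypes. They take no account of transcript length, 429 bases for WOX7 and 1052 for WOX5. On SIM both genes were back at or near 0. In the SIM 4 d libraries WOX5 had 0, 0.15 and 0.13 rpm in siz1-2 and 1.46, 0.08 and 0.07 rpm in WT. By SIM 6 d it had 1 read in siz1-2 over the 3 libraries, and 22 reads in WT, all in replicate 2, the library high in HSP101. From CIM 4 d to SIM 4 d WOX5 changed by −6.17 ± 0.33 in siz1-2 (limma adjusted p = 2.6e-11) and by −5.78 ± 0.33 in WT (limma adjusted p = 7.35e-11). WOX7 changed by −2.06 ± 0.18 in siz1-2 (limma adjusted p = 2.07e-08) and by −2.33 ± 0.18 in WT (limma adjusted p = 4.99e-09).

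The 2 genes ran together over the 24 libraries, with Pearson r = 0.981 of log2(rpm + 1). For both, the nearest non-members included BBM, an AP2-type gene of embryos and root tips (0.987 with WOX5 and 0.988 with WOX7). RBK2, a protein kinase gene, was closest to WOX5 (0.990), and PLT1, a PLETHORA gene of the root tip, was also near WOX7 (0.988). The 300 bases before the annotated start of WOX5 are shown for comparison with WUS, chr3:3526980-3527279, plus strand, RefSeq TAIR10.1, with the same use of capitals.
WOX5: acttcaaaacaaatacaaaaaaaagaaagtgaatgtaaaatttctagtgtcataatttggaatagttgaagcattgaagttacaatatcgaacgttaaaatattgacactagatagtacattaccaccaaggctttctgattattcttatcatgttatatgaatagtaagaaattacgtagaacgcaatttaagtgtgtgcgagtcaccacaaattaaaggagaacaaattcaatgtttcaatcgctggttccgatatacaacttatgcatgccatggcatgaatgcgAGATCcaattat
The window held 1 match, to AGATC.

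Of 10 genes of root founder and root tip identity, 9 rose and 1 fell in siz1-2 from 0 d to CIM 4 d (median 3.19), and 9 rose and none fell in WT (median 2.35), where 77.0% of all genes tested were called in siz1-2 and 49.6% rose, and 75.7% were called in WT and 49.1% rose. All genes tested had medians of 0.37 and 0.35 in these comparisons, and −0.01 in both after median-of-ratios scaling. LBD16 and LBD29, auxin-induced genes of lateral root and callus formation, rose by 3.30 and 3.08 in siz1-2 and by 2.52 and 2.17 in WT, and PLT1 rose by 5.35 in siz1-2 and 4.87 in WT. On transfer to SIM 7 of the 10 fell in siz1-2 and 9 in WT, with medians of −3.49 and −3.31. Of all genes tested, 25.1% were called lower in siz1-2 and 24.5% in WT at that step. The sum of 3 epidermal markers was high at CIM 4 d like WOX5. They summed to 436 to 633 rpm in siz1-2 and 359 to 496 rpm in WT at CIM 4 d, and to 6.8 to 10.0 rpm in siz1-2 and 6.3 to 7.8 rpm in WT at SIM 4 d. At 0 d they summed to 74.6 to 89.5 rpm in siz1-2 and 83.4 to 176 rpm in WT. The high CIM 4 d sum was mostly PDF1, at 419 rpm in siz1-2 and 346 rpm in WT at CIM 4 d and at 4.71 rpm in siz1-2 and 28.6 rpm in WT at 0 d. ATML1 averaged 15.7 rpm in siz1-2 and 14.1 rpm in WT at CIM 4 d, below its 0 d means of 34.8 rpm in siz1-2 and 32.0 rpm in WT. The part of epidermal cells in the WOX5 values was not tested.

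Within the CIM stage the 2 libraries high in ICS1 held the highest WOX5 and WOX7 values of their genotype. siz1-2 replicate 3 had WOX5 at 105 rpm and WT replicate 2 at 102 rpm, against 61.8 to 71.5 rpm in the 4 others. They also held the lowest WOX4, WOX11 and WOX14 values of their genotype. WOX4 stood at 9.36 rpm in siz1-2 replicate 3 and at 18.1 rpm in WT replicate 2, against 27.7 to 36.2 rpm in the 4 others. Vascular markers were low in the same 2 libraries: those of phloem summed to 28.9 rpm in siz1-2 replicate 3 and 50.3 rpm in WT replicate 2 against 115 to 158 rpm in the 4 others, and those of xylem to 33.6 and 70.7 rpm against 100 to 153 rpm. The part of this library state in the values was not tested. The rises of WOX5 and WOX7 at CIM 4 d, and their falls at SIM 4 d, were called as well without the 4 libraries that stood apart.

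**Figure D3:**
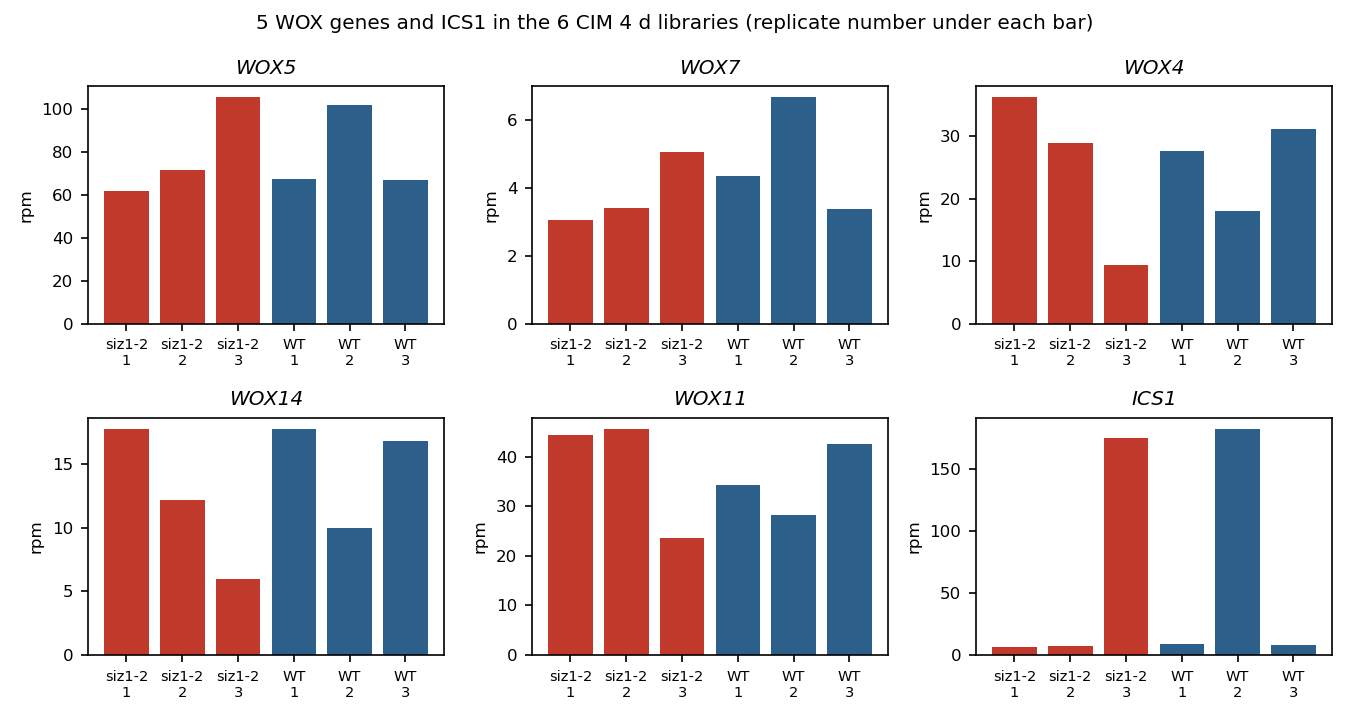
Levels in rpm, vertical axis, of 5 WOX genes and ICS1 in the 6 CIM 4 d libraries, horizontal axis, with siz1-2 in red left of WT in blue. The libraries with ICS1 at 174 rpm (siz1-2 replicate 3) and 182 rpm (WT replicate 2) have the tallest WOX5 and WOX7 bars of their genotype and the shortest WOX4, WOX14 and WOX11 bars.

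WOX11 came on with callus and stayed on. It lies on chromosome 3 at 889166 to 892229 on the minus strand, and its isoform 2 gave the value. At 0 d it had 1 read in siz1-2 and 3 in WT over the whole group. In callus at CIM 4 d it stood at 44.4, 45.6 and 23.7 rpm in siz1-2 and at 34.3, 28.2 and 42.5 rpm in WT. The rise was 5.17 ± 0.33 in siz1-2 (limma adjusted p = 3.25e-11) and 5.01 ± 0.33 in WT (limma adjusted p = 6.32e-11). Pooled reads gave a ratio of 1030 in siz1-2 (95% counting interval 185 to 40800) and of 371 in WT (127 to 1800).

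On SIM 4 d WOX11 stood at 52.2, 45.6 and 93.9 rpm in siz1-2 and at 45.2, 37.5 and 48.0 rpm in WT. Its change from CIM 4 d was 0.72 ± 0.33 in siz1-2 (limma adjusted p = 0.0753) and 0.32 ± 0.33 in WT (limma adjusted p = 0.459). Without siz1-2 SIM 4 d replicate 2 the first of these passed (limma adjusted p = 0.0459). By SIM 6 d it stood at 16.7, 45.4 and 36.8 rpm in siz1-2 and at 38.4, 18.7 and 23.8 rpm in WT. Against SIM 4 d that was −0.98 ± 0.33 in siz1-2 (limma adjusted p = 0.283) and −0.73 ± 0.33 in WT (limma adjusted p = 0.372). In siz1-2 every SIM 6 d library lay below every SIM 4 d library, at the nearest 45.4 against 45.6 rpm, and 22.6% of all genes tested had stages that did not overlap there. In WT the stages overlapped. WOX11 was closest in pattern to WRKY23, a transcription factor gene with a known part in auxin response (r = 0.988).

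WOX12, its closest relative, was read 151 times in all and reached at most 1.65 rpm. In callus at CIM 4 d it stood at 1.39, 1.52 and 1.19 rpm in siz1-2 and at 1.42, 1.44 and 1.13 rpm in WT, and the genotypes overlapped. At 0 d it had 4, 0 and 1 reads in siz1-2 and 20, 0 and 5 reads in WT, the 20 in the library high in greening markers. The rise to CIM 4 d was called in siz1-2 (1.03 ± 0.25, limma adjusted p = 0.000933) and not in WT (0.54 ± 0.25, limma adjusted p = 0.0582). DESeq2 on recovered reads did not call it in siz1-2 (adjusted p = 0.0551). It was called in WT by limma without that library (limma adjusted p = 0.00099), and the difference between the genotypes' rises did not pass (0.49 ± 0.35, limma adjusted p = 0.546). On SIM 4 d it had no read in siz1-2 and 7, 2 and 8 reads in WT. The change from CIM 4 d was −1.24 ± 0.25 in siz1-2 (limma adjusted p = 0.000341) and −0.73 ± 0.25 in WT (limma adjusted p = 0.0223). In WT that call was lost without CIM 4 d replicate 1 (limma adjusted p = 0.0593), without CIM 4 d replicate 2 (0.0558) and without SIM 4 d replicate 2 (0.0979), and with edgeR (0.143) and DESeq2 (0.203) on recovered reads.

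WOX4 rose at each change of medium. It lies on chromosome 1 at 17236524 to 17238185 on the minus strand. At 0 d it stood at 5.79, 3.95 and 8.55 rpm in siz1-2 and at 10.4, 9.60 and 8.87 rpm in WT. At CIM 4 d it stood at 36.2, 29.0 and 9.36 rpm in siz1-2 and at 27.7, 18.1 and 31.1 rpm in WT. At SIM 4 d it stood at 76.4, 79.6 and 91.4 rpm in siz1-2 and at 105, 87.5 and 80.3 rpm in WT. Every SIM library of either genotype lay above every CIM library, and every CIM library but siz1-2 replicate 3 lay above every 0 d library. Stages that did not overlap within a genotype were common at these steps. Between CIM 4 d and SIM 4 d they were found for 62.2% of all genes tested in siz1-2 and 52.3% in WT. Between 0 d and CIM 4 d the shares were 76.3% in siz1-2 and 77% in WT. The rise from 0 d to CIM 4 d was 1.72 ± 0.33 in siz1-2 (limma adjusted p = 0.000114) and 1.29 ± 0.33 in WT (limma adjusted p = 0.00178). From CIM 4 d to SIM 4 d it was 1.88 ± 0.33 in siz1-2 (limma adjusted p = 0.000118) and 1.81 ± 0.33 in WT (limma adjusted p = 0.000222). At SIM 6 d the level was 85.1 ± 4.27 rpm in siz1-2 and 83.3 ± 18.0 rpm in WT (SD, n = 3 each).

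PXY, the cambium receptor that acts upstream of WOX4, and CLE41, which encodes its peptide ligand, rose with it from CIM 4 d to SIM 4 d, by 2.20 and 1.98 in siz1-2 and by 1.67 and 1.92 in WT. CLE44, another gene for that ligand, fell by 1.31 in siz1-2 and by 0.99 in WT, and CLE42 was not called. Vascular markers were lower at CIM 4 d than at either stage beside it. Phloem markers summed to 28.9 to 158 rpm in siz1-2 and 50.3 to 124 rpm in WT at CIM 4 d, and to 380 to 492 rpm in siz1-2 and 344 to 477 rpm in WT at SIM 4 d. At 0 d they summed to 417 to 429 rpm in siz1-2 and 458 to 474 rpm in WT, the stage at which WOX4 was lowest. The genes closest to WOX4 in pattern were AT3G61820 (r = 0.991), AT2G46890 (0.988) and SERK1, a receptor kinase gene (0.988).

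WOX14 lies on chromosome 1 at 7182558 to 7184056 on the plus strand and was read in every library. It stood at 4.97, 6.34 and 7.99 rpm in siz1-2 and at 6.04, 5.58 and 7.11 rpm in WT at 0 d. In callus at CIM 4 d it stood at 17.8, 12.2 and 5.96 rpm in siz1-2 and at 17.8, 9.97 and 16.8 rpm in WT. siz1-2 replicate 3, one of the libraries high in ICS1, lay within the 0 d range. The rise was 0.71 ± 0.29 in siz1-2 (limma adjusted p = 0.029) and 1.09 ± 0.29 in WT (limma adjusted p = 0.00172). In siz1-2 the call was lost after median-of-ratios scaling (0.31, limma adjusted p = 0.347) and with edgeR (0.151) and DESeq2 (0.235) on recovered reads. It was also lost without CIM 4 d replicate 1 (0.39, limma adjusted p = 0.217) or 2 (0.0819) and without 0 d replicate 1 (0.118) or 2 (0.0576), while without CIM 4 d replicate 3 the rise was 1.10. WOX14 then stood at 8.32 ± 1.3 rpm in siz1-2 and 11.6 ± 2.89 rpm in WT at SIM 4 d, with no call against CIM 4 d in either genotype. Without the siz1-2 library high in ICS1 it was lower at SIM 4 d in siz1-2 (−0.77, limma adjusted p = 0.0176). Without all 4 libraries that stood apart it was lower in both genotypes, in siz1-2 (−0.77, limma adjusted p = 0.0088) and in WT (−0.57, limma adjusted p = 0.0475). No gene followed it as closely as for most other members, the nearest being DPMS1 at r = 0.870.

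WOX13, of the oldest branch of the family, was read in every library, at 13.9 to 57.2 rpm. It lies on chromosome 4 at 16875521 to 16877451 on the minus strand, and 78 bases of it overlap AT4G35540 on the other strand. It stood at 15.9, 13.9 and 15.5 rpm in siz1-2 and at 16.6, 18.1 and 15.3 rpm in WT at 0 d. At CIM 4 d it stood at 36.7, 40.7 and 38.4 rpm in siz1-2 and at 42.2, 49.6 and 44.6 rpm in WT, where every siz1-2 library lay below every WT library. That difference, −0.23 ± 0.09, did not pass over all genes (limma adjusted p = 0.259), and 14.3% of all genes tested had genotypes that did not overlap at this stage. The rise from 0 d was 1.297 ± 0.09 in siz1-2 (limma adjusted p = 5.52e-11) and 1.39 ± 0.09 in WT (limma adjusted p = 2.27e-11). A further rise at SIM 4 d was called in siz1-2 (0.31 ± 0.09, limma adjusted p = 0.00666) and not in WT (0.06 ± 0.09, limma adjusted p = 0.648), and the difference between them did not pass (0.26 ± 0.13, limma adjusted p = 0.553). At SIM 6 d the level was 53.3 ± 3.54 rpm in siz1-2 and 51.1 ± 5.28 rpm in WT (SD, n = 3 each).

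WOX1 and PRS, the leaf margin genes, were close to absent. WOX1 reached 1.65 rpm in WT replicate 1 at 0 d, the library high in greening markers, with 20 of its 64 reads, and had at most 8 reads in any other library. The 7 PRS reads were all at SIM 6 d, 2 in siz1-2 and 5 in WT, those 5 in WT replicate 2, which also held the WOX5 reads of that group. Of 7 other genes of leaf polarity and margin, YAB3 and AS2 were likewise too low to test. Of the 5 others, 3 rose and 1 fell at CIM 4 d in siz1-2 and 2 rose and 1 fell in WT, where 77.0% of all genes tested were called in siz1-2 and 75.7% in WT. ARF5, an auxin response factor gene, rose by 1.89 in siz1-2 and 1.42 in WT. ARF4, of the same family, was higher in siz1-2 than in WT at SIM 4 d (0.59 ± 0.12, limma adjusted p = 0.0128) and at SIM 6 d (0.56 ± 0.12, limma adjusted p = 0.014). At these stages 2.20% and 3.01% of all genes tested were called. Of the same 5 genes, 1 was called higher in siz1-2 at CIM 4 d, against 2.20% of all genes. The genotype difference from CIM 4 d to SIM 4 d was called lower for 1 of them, against 0.211% of all genes called. The family's 5 remaining genes in the files, WOX2, WOX6, WOX8, WOX9 and WOX10, held 55 reads in all.

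Counted over the 8 tested members, 7 rose from 0 d to CIM 4 d in siz1-2, where 77.0% of all genes tested were called and 49.6% rose. In WT 6 rose, where 75.7% of all genes were called and 49.1% rose. From CIM 4 d to SIM 4 d 3 rose (WUS, WOX4 and WOX13) and 3 fell (WOX5, WOX7 and WOX12) in siz1-2, where 53.9% of all genes were called, 28.8% higher and 25.1% lower. In WT 2 rose (WUS and WOX4) and the same 3 fell, where 45.7% of all genes were called, 21.2% higher and 24.5% lower. Some members passed the filter only through stages at which they are high. WUS reached 1 rpm in 12 libraries, all on SIM, and WOX7 in 6, all at CIM 4 d. WOX11 did so in 18, none at 0 d, and WOX12 in 7, all at CIM 4 d but WT replicate 1 at 0 d. Their part in these counts was thus partly set by the filter. Between SIM 4 d and SIM 6 d limma called no member in either genotype, against 0.629% of all genes in siz1-2 and 0.589% in WT. At an unadjusted p below 0.05, 1 member (WOX11) passed in each genotype, and edgeR and DESeq2 called 0.

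**Figure D4:**
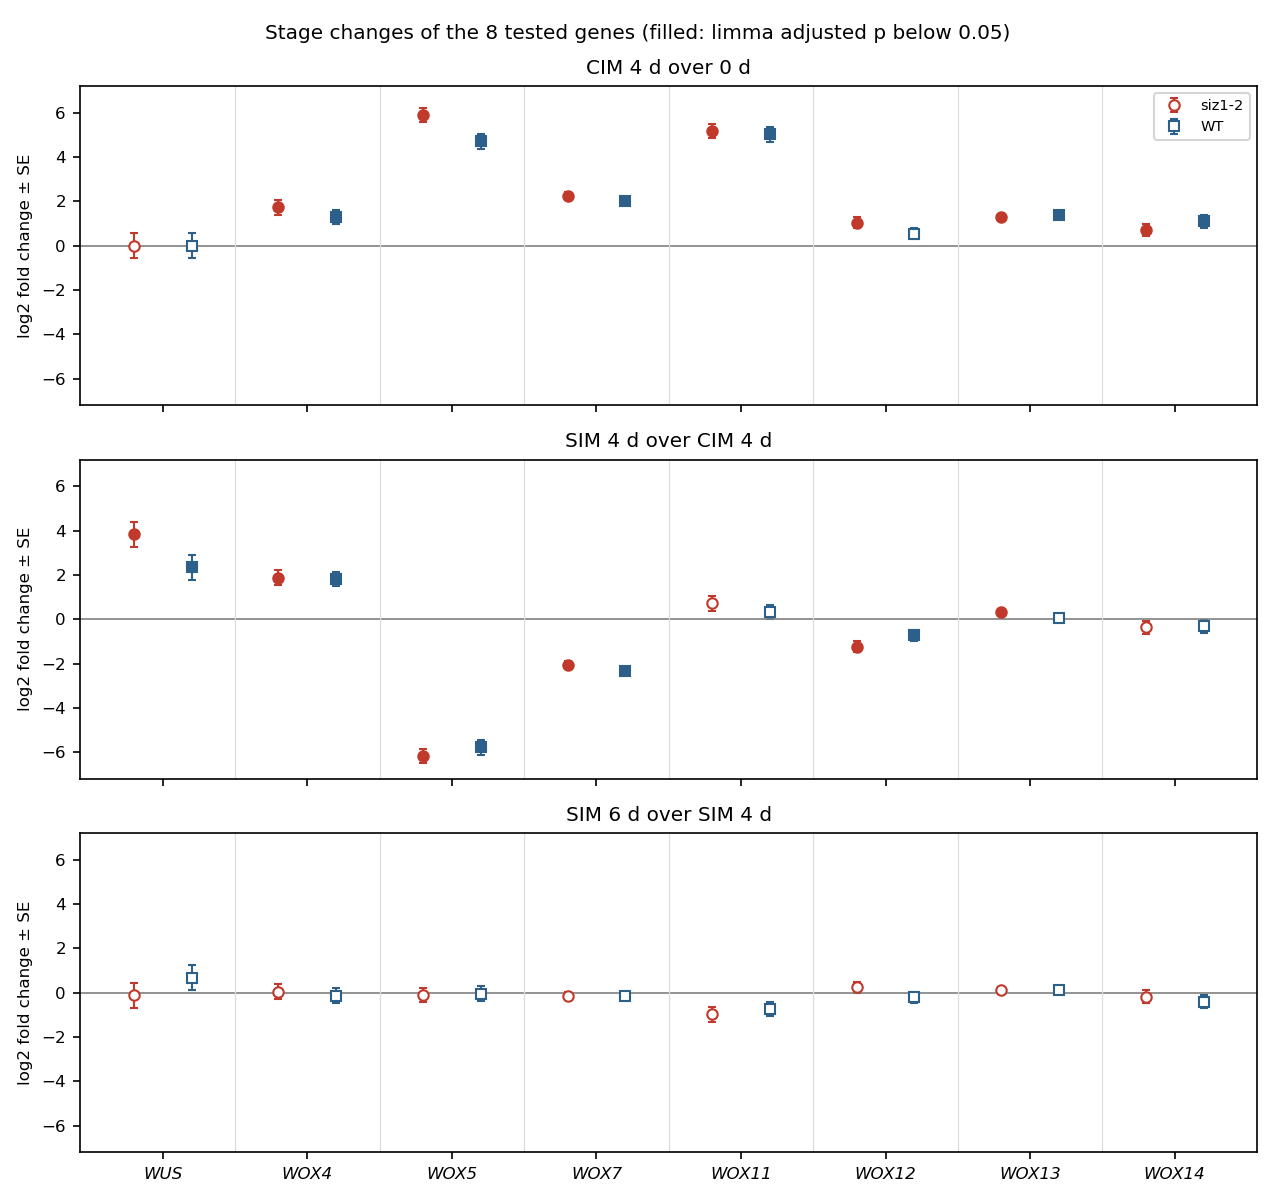
Log2 fold change ± SE on the log2(rpm + 1) scale, vertical axis, of the 8 tested members, horizontal axis, between neighbouring stages, with siz1-2 as circles left of WT as squares and filled symbols for limma adjusted p below 0.05. WOX5 is at 5.88 in siz1-2 and 4.71 in WT in the first panel and at −6.17 and −5.78 in the second, and no symbol of the third panel is filled.

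Between the genotypes 1 member was called. WOX5 was lower in siz1-2 at 0 d, at 0.34 ± 0.22 rpm in siz1-2 and 1.99 ± 0.36 rpm in WT (SD, n = 3 each), a difference of −1.16 ± 0.33 (limma adjusted p = 0.0266). At that stage 11.0% of all genes tested were called and 6.60% were lower. Pooled, WOX5 had 9 reads in siz1-2 and 64 in WT, 5.92-fold lower in siz1-2 per library read. The call was lost with edgeR (adjusted p = 0.133) and DESeq2 (0.231) on recovered reads. Leaving out 1 library also ended it for WT replicate 1 (limma adjusted p = 0.0642), 2 (0.0568) or 3 (0.0853) and for siz1-2 replicate 1 (0.0714) or 3 (0.0914).

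WOX7, with 0 reads in siz1-2 and 14 in WT at 0 d, was at least 3.89-fold lower in siz1-2 with that group set at 3 reads. Its difference of −0.50 ± 0.18 missed the limma threshold (adjusted p = 0.0844), while edgeR (adjusted p = 0.035) and DESeq2 (adjusted p = 0.0166) on recovered reads called it. WOX4, WOX5 and WOX7 were the members whose siz1-2 libraries all lay below the WT libraries at 0 d, and 30.7% of all genes tested had genotypes that did not overlap there. Of the 10 root founder genes, LBD16 was lower in siz1-2 at 0 d (−1.23 ± 0.23, limma adjusted p = 0.00125), as were PLT1 (−0.92) and PLT2 (−0.79), and TAA1, an auxin synthesis gene, was higher (1.61). Lower genes were not limited to this list, since 3 of 9 tested CLAVATA genes were lower and 0 higher. Over the 9 gene lists 8 of 58 tested genes were lower and 1 higher, where 6.60% of all genes tested were lower. Other markers differed between the genotypes at 0 d too. Of 2 endodermal markers, CASP1 stood at 98.3 to 132 rpm in siz1-2 and 53.4 to 69.6 rpm in WT, and MYB36 at 14.5 to 22.3 rpm in siz1-2 and 20.5 to 24.4 rpm in WT, where the genotypes overlapped. HSP101 stood at 89.9 to 193 rpm in siz1-2 and 15.2 to 22.2 rpm in WT. Their part in the WOX5 and WOX7 values was not tested. Without the 4 libraries that stood apart, WOX5 was still called (−1.20, limma adjusted p = 0.00603). Of these only WT replicate 1 is a 0 d library, and without it alone the call was lost (−1.20, limma adjusted p = 0.0642). The rest enter this comparison through the shared estimate of the spread and not through its means.

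At CIM 4 d, SIM 4 d and SIM 6 d limma called no member between the genotypes, against 2.20%, 2.20% and 3.01% of all genes tested. At an unadjusted p below 0.05, WOX13 passed at CIM 4 d, WUS at SIM 4 d and none at SIM 6 d, and edgeR and DESeq2 called 0 at each of these stages. WOX12 at SIM 4 d, with 0 reads in siz1-2 and 17 in WT, was at least 5.74-fold lower in siz1-2 with that group set at 3 reads, and its difference of −0.49 ± 0.25 did not pass (limma adjusted p = 0.398). The genotype difference in a stage change was called by limma, edgeR and DESeq2 for 0 members at each of the 3 steps, against 3.15%, 0.211% and 0.00982% of all genes by limma. At an unadjusted limma p below 0.05, WOX5 alone passed, for the step from 0 d to CIM 4 d.

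**Figure D5:**
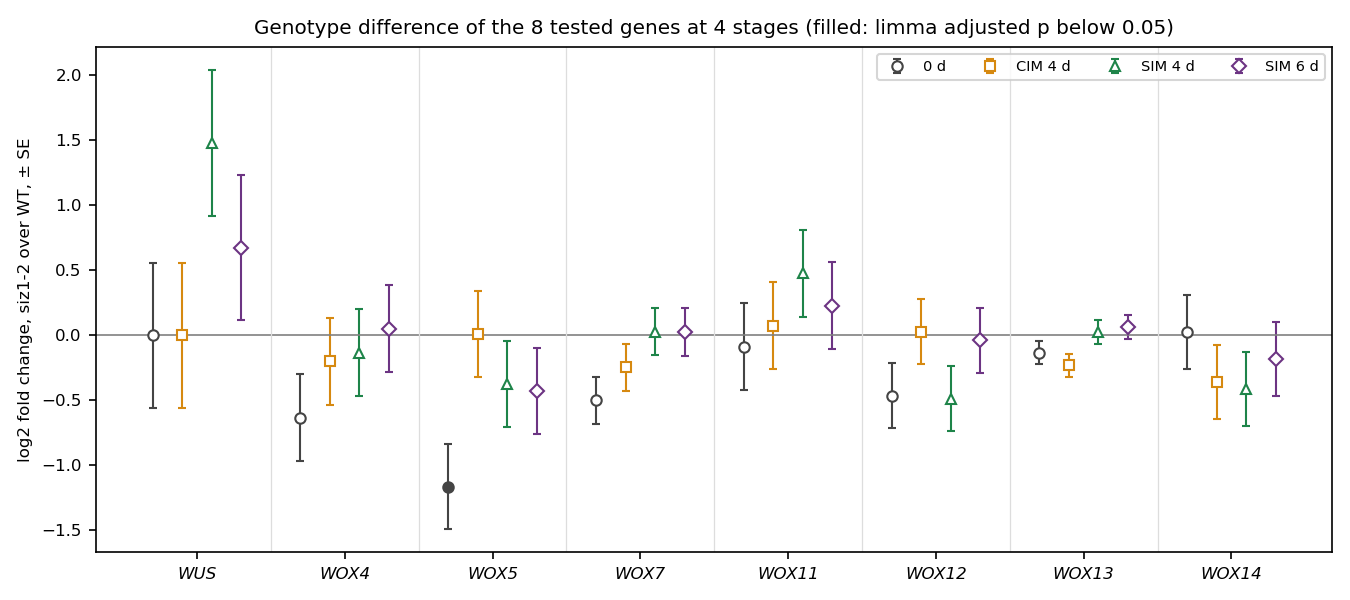
Log2 fold change of siz1-2 over WT ± SE on the log2(rpm + 1) scale, vertical axis, for the 8 tested members, horizontal axis, at 4 stages by symbol, filled where the limma adjusted p is below 0.05. WOX5 at 0 d (−1.16) is the one filled symbol, and WUS at SIM 4 d (1.48) is the highest point.

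Levels of different members were set side by side per kilobase of their longest annotated transcript. At 0 d WOX13 led with 10.9 ± 0.79 rpm per kb in siz1-2 and 12.1 ± 1.02 in WT. WOX4 followed with 4.22 ± 1.60 in siz1-2 and 6.67 ± 0.54 in WT, and WOX14 with 4.71 ± 1.11 in siz1-2 and 4.58 ± 0.58 in WT, 2 genes within each other's SD in siz1-2. At CIM 4 d WOX5 led with 75.6 ± 21.8 rpm per kb in siz1-2 and 74.7 ± 19.1 in WT, ahead of WOX13 with 27.9 ± 1.47 and 32.9 ± 2.71. WOX4 and WOX11 came next and did not differ beyond their SD, and neither did WOX7 and WOX14 after them. At SIM 4 d WOX4 led with 57.2 ± 5.46 rpm per kb in siz1-2 and 63.0 ± 8.70 in WT, then WOX13 with 34.8 ± 1.3 and 34.1 ± 2.20. WOX11 followed with 25.4 ± 10.4 in siz1-2 and 17.4 ± 2.16 in WT, and in siz1-2 it overlapped WOX13 within SD. WUS stood at 11.6 ± 5.56 rpm per kb in siz1-2 and 4.68 ± 5.17 in WT, with means below those of WOX11. WUS and WOX11 overlapped within their SD in siz1-2, and WUS and WOX14 (8.46 ± 2.12) did so in WT. At SIM 6 d the first 2 places were the same, and WOX11 (13.1 ± 5.86 in siz1-2 and 10.7 ± 4.08 in WT) and WUS (9.90 ± 2.74 in siz1-2 and 7.50 ± 5.63 in WT) overlapped within their SD.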

How the data were processed

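Total mRNA of whole explants went into strand-preserving libraries, per the labels' protocols. Of the tools, bcl2fastq and Bowtie 1.2.1 are known per the submitters' processing notes, as is the build, TAIR10. Which isoform a read was given to, and whether strand mattered, the sources used here do not say. The 2 isoform rows of WOX12 held near equal reads, 20 and 20 in WT replicate 1 at 0 d. Each deposited signal value per transcript isoform proved to be a whole number of reads (100% of values, tolerance 0.001 of a read) on a scale of 1000000 reads per library. A gene's value came from its isoform of highest mean over all 24 libraries.

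Genes with at least 1 rpm in at least 3 libraries were tested (20361, with 5599 not tested). The test was limma 3.58.1 (R 4.3.3) with trend and robust moderation on log2(rpm + 1), which understates changes of low genes, in 1 model of the 8 group means with 16 residual degrees of freedom. p-values were adjusted by Benjamini-Hochberg over all genes tested, and 0.05 was the threshold. Recovered reads were tested with edgeR 4.0.16 (quasi-likelihood) and DESeq2 1.42.0 as alternatives. The 13 comparisons were the genotypes at each stage, neighbouring stages within a genotype, and the genotype difference in each such step. Fold bounds set a group without reads at 3 reads over the group, and bounds and intervals cover counting error only.

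All 10 members are named, list genes are named among the called genes of largest change, and like genes are those with the highest Pearson r among tested non-members with a mean of at least 1 rpm. The gene model, coordinates and sequences are from RefSeq TAIR10.1, and no coordinate was converted between builds. Members, gene lists and tests were chosen with earlier results of these data known. Whether replicates came from separate cultures is not stated, and p-values therefore cover the spread of these libraries, which may be technical. Groups follow titles and sampling times, and the free-text descriptions of some SIM 6 d libraries exchange the days on the 2 media. Alternatives were other pseudocounts, filters, scaling, isoform summing, moderation, the replicate number as a block, and leaving out libraries. Tests were checked on simulated data. Some sequences are not reported here.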

Additional observations from a re-analysis of the deposited data

How the results depend on the processing

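Of 25 called member values, 21 stayed on the same side of the threshold with the same sign in every alternative run, 18 for a comparison of 2 groups and 24 for a genotype difference in a step. The exceptions were WOX5 between the genotypes at 0 d, WOX12 and WOX14 from 0 d to CIM 4 d in siz1-2, and WOX12 from CIM 4 d to SIM 4 d in WT. Between the genotypes at 0 d, limma called 2 members with a pseudocount of 0.25 and 2 after median-of-ratios scaling (WOX5 and WOX7 in each), 0 with a pseudocount of 4, and 0 to 1 without single libraries. At SIM 4 d it called 1 (WUS) without WT replicate 2 and 0 without any other 1 library. Leaving out single libraries moved the WUS difference between the genotypes at SIM 6 d over −0.081 (without WT replicate 1) to 1.194 (without WT replicate 2), and that between SIM 6 d and SIM 4 d in siz1-2 over −0.575 (without SIM 4 d replicate 3) to 0.134 (without SIM 4 d replicate 1), with 0.086 without SIM 4 d replicate 2. None of these was called. WOX12 between the genotypes at 0 d was called without WT replicate 2 (−0.81, limma adjusted p = 0.0377). The causes were not tested. Counts of called genes over the whole table moved by more than 1.5 times in places: 448 (53 to 583) between the genotypes at CIM 4 d, 447 (184 to 1000) at SIM 4 d, 613 (164 to 912) at SIM 6 d and 2233 (1347 to 2318) at 0 d, 128 (22 to 366) in siz1-2 and 120 (0 to 398) in WT between SIM 6 d and SIM 4 d, and 641 (310 to 862), 43 (14 to 93) and 2 (0 to 36) for the genotype difference in the 3 steps. Replicate numbers did not pair the libraries: of 12 pairs of libraries with the same stage and number, 3 had a correlation over 0.1 (range −0.731 to 0.607). With the replicate number as a block, WOX5 at 0 d kept its call (limma adjusted p = 0.0355), WOX12 from 0 d to CIM 4 d in WT gained one (0.0485), and the counts of members called between the genotypes were 1, 0, 0 and 0. Depth limits WOX1, PRS, WOX7 and WOX12, where 1 read was worth 0.064 to 0.13 rpm.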
